A study of Homo sapiens with 6 samples.

Results

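The 10 genes described here are 8 metallothioneins (MT1A, MT1E, MT1F, MT1G, MT1H, MT1M, MT1X and MT2A), the metal-responsive transcription factor gene MTF1 and the zinc exporter gene SLC30A1. They were taken by symbol, and each of the 10 is among the 23346 genes of the count table. RNA-seq was performed on BT549, a mesenchymal-like human breast cancer cell line with the label wild type, after transfection with 20 nM of negative control (NC) siRNA or of siRNA against BNC2, a zinc finger gene, with RNA prepared 6 d later. There were 3 libraries for each group, which the methods describe as biological replicates, so both groups share the cell line, the transfection and the time. BNC2 siRNA was an equal mix of 3 siRNAs, and all results are from 1 cell line in which the target was lowered but not removed. The comparison asks which genes of zinc storage and export depend on endogenous BNC2.

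Metallothioneins are small cysteine-rich proteins that bind zinc and copper in the cytosol and buffer the free ions. When zinc rises, MTF1 binds it through its zinc fingers, enters the nucleus and activates genes that carry metal response elements, among them metallothionein genes and SLC30A1. SLC30A1 moves zinc out of the cell across the plasma membrane, so that storage and export belong to the same feedback loop. MT2A is usually the most abundant metallothionein transcript of human cells, and the MT1 genes vary with the tissue.

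The libraries held 16093978 to 18246254 counts. BNC2 itself was at 58.5 ± 7.07 CPM (read counts scaled to library size after TMM normalisation; SD, n = 3) with NC siRNA and at 37.8 ± 3.25 CPM (SD, n = 3) with BNC2 siRNA, with no overlap (edgeR, log2 fold change -0.63 ± 0.09 (SE), adjusted p = 8.2e-06). Of the markers listed for the cell type, the 5 mesenchymal genes (VIM, FN1, CDH2, ZEB1 and SPARC) were all expressed, whereas the 5 epithelial genes (CDH1, EPCAM, ESRP1, CLDN4 and KRT19) had at most 5 counts in any library. Of the leukocyte genes PTPRC and CD3E had at most 7 counts, CD68 rose from 117 to 144 CPM and CD14 fell from 1.70 to 0.635 CPM, and the 4 endothelial genes had at most 7 counts.

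A metal response element has the 7-base core TGCACNC or TGCGCNC, in which N is any base. The promoters of 5 of the 10 genes could be matched in RefSeq (GRCh38.p14), and the 250 bases before the transcription start were searched on both strands. The cores did not overlap each other in these promoters. The sequences of MT2A, MT1X, MT1H and SLC30A1 are shown because they set an abundant, an intermediate and an undetected metallothionein beside the gene that rose most. The cores are in capitals, and those on the opposite strand appear as their reverse complement.

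MT2A, chr16:56608334-56608583, plus strand: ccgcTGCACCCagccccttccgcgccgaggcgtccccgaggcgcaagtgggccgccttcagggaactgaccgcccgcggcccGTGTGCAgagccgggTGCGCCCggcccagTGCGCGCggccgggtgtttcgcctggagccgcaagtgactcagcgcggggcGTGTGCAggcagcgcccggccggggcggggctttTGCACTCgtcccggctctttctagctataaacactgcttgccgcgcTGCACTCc
MT1X, chr16:56682220-56682469, plus strand: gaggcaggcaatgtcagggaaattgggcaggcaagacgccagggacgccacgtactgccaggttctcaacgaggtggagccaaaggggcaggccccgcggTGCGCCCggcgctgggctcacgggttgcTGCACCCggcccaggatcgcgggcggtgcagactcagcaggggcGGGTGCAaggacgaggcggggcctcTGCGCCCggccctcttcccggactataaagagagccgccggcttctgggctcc
MT1H, chr16:56669564-56669813, plus strand: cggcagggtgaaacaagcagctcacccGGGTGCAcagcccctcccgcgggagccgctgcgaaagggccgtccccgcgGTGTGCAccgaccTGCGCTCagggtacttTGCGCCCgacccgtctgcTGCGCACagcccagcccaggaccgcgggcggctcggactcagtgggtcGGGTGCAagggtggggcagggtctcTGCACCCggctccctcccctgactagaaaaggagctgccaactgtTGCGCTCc
SLC30A1, chr1:211579162-211579411, minus strand: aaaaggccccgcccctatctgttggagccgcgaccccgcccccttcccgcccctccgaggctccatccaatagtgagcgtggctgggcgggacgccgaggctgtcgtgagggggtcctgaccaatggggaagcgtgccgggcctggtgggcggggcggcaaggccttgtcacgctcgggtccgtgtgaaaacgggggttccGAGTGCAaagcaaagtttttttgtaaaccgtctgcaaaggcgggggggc

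MT2A held 7 cores, MT1H 8 and MT1X 4, whereas SLC30A1 held 1, on the opposite strand between 49 and 43 bases before the start. In the 250 bases before the start of MTF1 neither spelling of the core was found. Of 35116 promoters of this length 24.8% held at least 1 core, 0.37% at least 4, 0.0313% at least 7 and 0.0171% at least 8. MT1X and MT1H each had a core from 53 to 47 bases before the start, read TGCGCCC in MT1X and TGCACCC in MT1H, and MT2A had one from 54 to 48 bases before it, read TGCACTC. On the opposite strand MT1X and MT1H both had TGCACCC from 78 to 72 bases before the start. A match of letters is a description of the sequence and not a measured binding site.

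**Figure D1:**
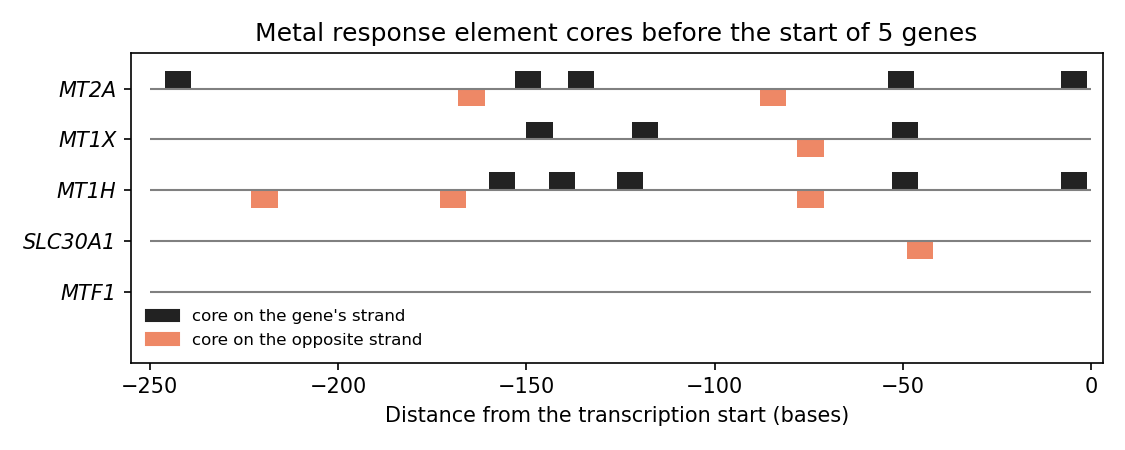
Positions of the metal response element core in the 250 bases before the transcription start of 5 genes, with distance from the start in bases on the x axis, black bars for cores on the gene's strand and orange bars for cores on the opposite strand. MT2A, MT1H and MT1X held 7, 8 and 4 cores, SLC30A1 held 1 and MTF1 none.

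Among the 10 genes, the zinc exporter rose most upon BNC2 knockdown and the main metallothionein did not pass the test. SLC30A1 rose 2.72-fold and MTF1 1.63-fold, and in both the groups were fully separated. MT1X was higher by 1.17-fold with overlapping libraries, and MT2A and MT1F were not called. Of the 10 genes 5 had more than 1 CPM in at least 3 libraries and were tested. Of these 5, 3 (SLC30A1, MTF1 and MT1X) rose and 0 fell (adjusted p of at most 0.05), and in 2 the groups did not overlap. Across the 12186 genes tested 72.9% were called, 36.6% upwards and 36.2% downwards, and in 74.9% the groups did not overlap, so the count of the 5 is read against a background in which most genes were called. The median log2 fold change was 0.22 for the 5 genes and 0.00 for all genes tested. A change in bulk RNA cannot tell more RNA per cell from a change in the mix of cells.

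SLC30A1, on chromosome 1 of GRCh37 from 211744910 to 211752503 on the minus strand (2 exons), measured 9.34, 8.50 and 8.36 CPM under NC siRNA and 24.6, 19.8 and 27.1 CPM under BNC2 siRNA. The groups were fully apart, with a gap between the highest control and the lowest BNC2 siRNA library that was wider than the whole range of either group. The group means were 8.73 ± 0.530 CPM (SD, n = 3) and 23.8 ± 3.72 CPM (SD, n = 3), and edgeR estimated a log2 fold change of 1.44 ± 0.12 (SE; 95% interval 1.19 to 1.70; adjusted p = 1.5e-08). Only 3.2% of the genes tested had a higher log2 fold change, which places SLC30A1 at rank 391 of 12186. With 1 library left out at a time, its log2 fold change lay between 1.34 and 1.57.

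MTF1, the zinc sensor that activates metallothionein genes, lies on chromosome 1 from 38275246 to 38325264 on the minus strand (11 exons). It had 32.2, 28.5 and 32.1 CPM with NC siRNA and 46.9, 49.3 and 55.4 CPM with BNC2 siRNA. The libraries of each group were close together and the groups did not overlap. The means rose from 31.0 ± 2.10 to 50.5 ± 4.39 CPM (SD, n = 3), and edgeR estimated a log2 fold change of 0.71 ± 0.08 (SE; 95% interval 0.53 to 0.88; adjusted p = 7.9e-07). Of the genes tested 14.8% had a higher log2 fold change. The difference between the rises of SLC30A1 and MTF1 was not tested. The GENCODE gene AL929472.1 (38292232 to 38293886) lies within MTF1 on the same strand, and LINC03041 and the pseudogene LSM1P1 likewise overlap BNC2, so reads of any shared bases cannot be told apart.

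The 8 metallothioneins lie with 8 other metallothionein genes and pseudogenes in a cluster of 119.1 kb on chromosome 16 of GRCh37, from 56598985 to 56718108. MT2A (56642496 to 56643409, plus strand, 3 exons) had 581, 712 and 789 CPM with NC siRNA and 757, 559 and 594 CPM with BNC2 siRNA. The highest BNC2 siRNA library, replicate 1, was above the lower controls, and the lowest control, also replicate 1, was between the remaining BNC2 siRNA libraries, so the groups overlapped. The means were 694 ± 105 and 637 ± 105 CPM (SD, n = 3), and edgeR estimated a log2 fold change of -0.12 ± 0.11 (SE; 95% interval -0.35 to 0.10; adjusted p = 0.294). These data therefore allow a fall of MT2A by up to 0.35 or a rise by up to 0.10 on the log2 scale. The absence of a call rested on single libraries: the log2 fold change was -0.26 (adjusted p = 0.025) without BNC2 siRNA replicate 1 and -0.26 (adjusted p = 0.0079) without NC siRNA replicate 1.

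MT1X (56716382 to 56718108, plus strand, 3 exons) had 25.9, 27.5 and 33.2 CPM with NC siRNA and 36.7, 31.2 and 33.1 CPM with BNC2 siRNA. The highest control lay within the range of the BNC2 siRNA libraries and the other controls lay below it. The means were 28.9 ± 3.84 and 33.7 ± 2.79 CPM (SD, n = 3), and edgeR estimated a log2 fold change of 0.22 ± 0.10 (SE; 95% interval 0.02 to 0.43; adjusted p = 0.0469). This call is weak. It was lost with DESeq2 (0.22, adjusted p = 0.0667), with DESeq2's size factors in edgeR (0.22, adjusted p = 0.0531), and with scaling by total counts only (0.15, adjusted p = 0.164). It was also lost without BNC2 siRNA replicate 1 (0.16), BNC2 siRNA replicate 3 (0.23), NC siRNA replicate 1 (0.13) or NC siRNA replicate 2 (0.17). A long non-coding RNA of GENCODE, ENSG00000259827, overlaps MT1X on the same strand, and reads of the shared bases cannot be told apart.

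MT1F (56691643 to 56694610, plus strand, 3 exons) was weakly expressed, at 2.19, 3.08 and 2.10 CPM with NC siRNA and 2.27, 2.37 and 2.35 CPM with BNC2 siRNA. All BNC2 siRNA libraries lay within the range of the controls. The log2 fold change in edgeR was -0.08 ± 0.22 (SE; 95% interval -0.54 to 0.38; adjusted p = 0.743), and without NC siRNA replicate 2, the highest control, it was 0.10. A change within these bounds was not detectable at this depth. MT1E (56659387 to 56661024, plus strand, 2 exons) stayed below the filter, with 11, 12 and 5 counts with NC siRNA and 16, 16 and 9 counts with BNC2 siRNA, and the groups overlapped. When genes were tested without a low-count filter, its log2 fold change was 0.62 (adjusted p = 0.26).

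**Figure D2:**
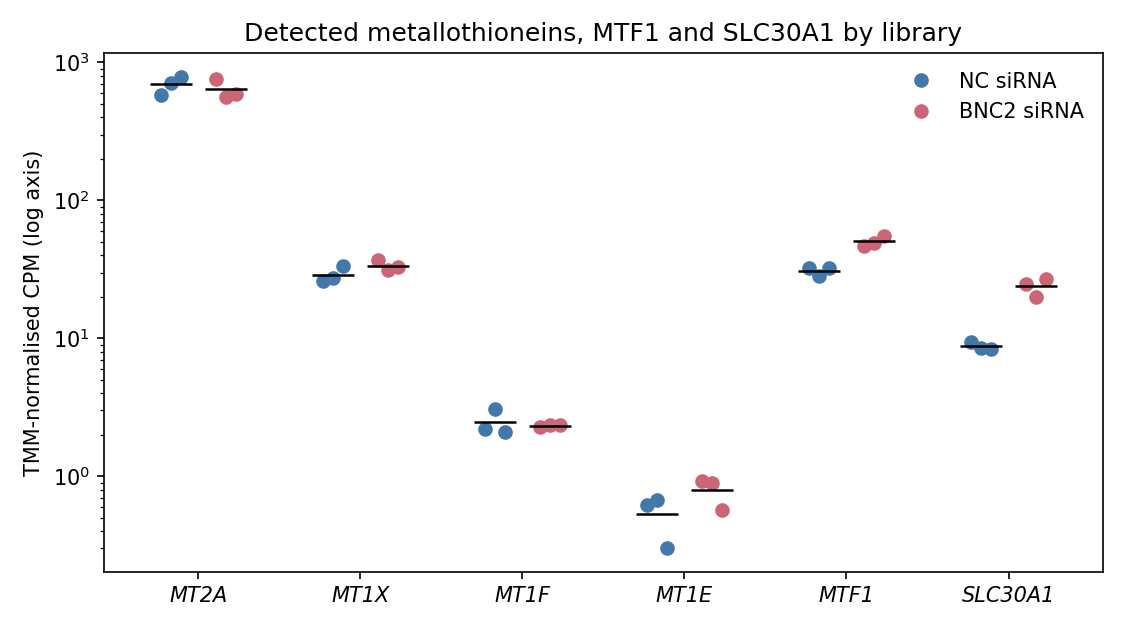
TMM-normalised CPM on a log axis for the 6 genes with more than 2 counts in each library, with 1 point per library (blue, NC siRNA; red, BNC2 siRNA) and a line at each group mean. The groups are apart for MTF1 and SLC30A1, whose means rose from 31.0 to 50.5 and from 8.73 to 23.8 CPM, and overlap for MT2A, MT1X, MT1F and MT1E.

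The remaining metallothioneins were at or near 0. MT1H and MT1M had 0 counts in all 6 libraries, which allows up to 3 counts or 0.164 to 0.186 CPM per library. MT1A had 2 counts in NC siRNA replicate 2 and 0 in the others, and MT1G had 1 count in each of NC siRNA replicates 1 and 3 and 0 in the others. No change of these 4 genes could be seen at this depth. Of the 7 other metallothionein genes and pseudogenes in the table, MT1B, MT1L, MT1JP, MT1IP and MT3 had 0 counts throughout. MT1DP had 3 counts in NC siRNA replicate 2 and MT4, a metallothionein of stratified squamous epithelium, had 1 in NC siRNA replicate 3. MT1H thus had 8 cores before its start and 0 counts, and MT2A had 7 cores and the highest level.

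Per length of transcript (GENCODE's canonical transcript), the levels spanned more than 3 orders of magnitude. With NC siRNA, MT2A had 1731 ± 263 CPM per kb (SD, n = 3), MT1X 71.5 ± 9.49 and MT1F 5.79 ± 1.26. MTF1 followed at 3.90 ± 0.265, then SLC30A1 at 1.48 ± 0.0899 and MT1E at 0.711 ± 0.269 CPM per kb. No neighbours in this order overlapped in their libraries. With BNC2 siRNA the order was MT2A at 1588 ± 263, MT1X at 83.4 ± 6.91, MTF1 at 6.37 ± 0.553, MT1F at 5.48 ± 0.129, SLC30A1 at 4.05 ± 0.632 and MT1E at 1.07 ± 0.266 CPM per kb. By this measure MTF1 stood above MT1F, and again no neighbouring libraries overlapped. Their nearest libraries were close, at 5.91 CPM per kb for MTF1 and 5.57 for MT1F. The order of these 2 genes therefore depends on the transcript lengths used, 7937 bases for MTF1 and 425 for MT1F.

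**Figure D3:**
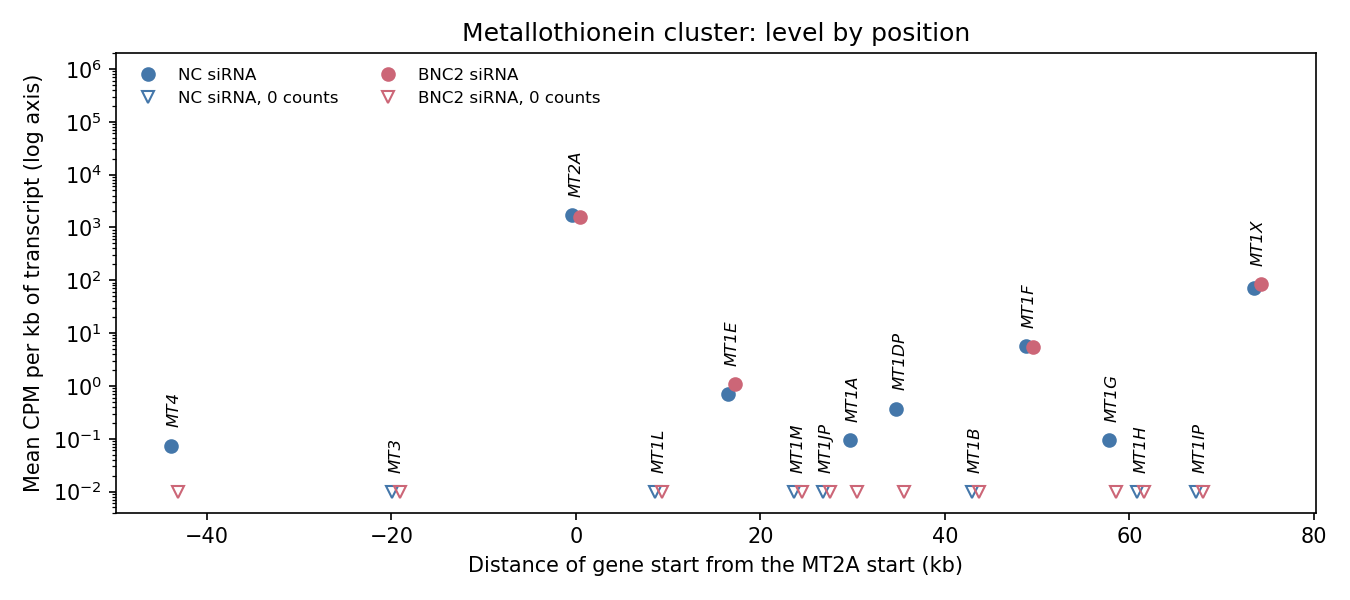
Mean CPM per kb of transcript on a log axis against the distance of each metallothionein gene from the start of MT2A in kb, for NC siRNA (blue) and BNC2 siRNA (red), with open triangles at an arbitrary low position for 0 counts. MT2A and MT1X stand above the other genes in both groups, at 1731 and 71.5 CPM per kb with NC siRNA, and 5 genes outside the 8 as well as MT1H and MT1M had 0 counts in both groups.

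Because metallothionein genes resemble each other, reads that match more than 1 place are missing from these counts. Of the 75-base windows (the read length) along the transcript of MT2A, 0 of 327 recurred exactly elsewhere in GRCh37 or in another gene's transcript. The same was true of 0 of 351 windows of MT1F, 0 of 322 of MT1A and 0 of 5819 of SLC30A1. The share that recurred was 8.18% for MT1X (shared with MT1G and the pseudogene MT1XP1), 6.55% for MT1G, 10.8% for MT1H, 1.24% for MT1M, 0.75% for MTF1 and 11.9% for MT1E. Most windows of each of the 10 transcripts were therefore unique. Reads that map to multiple places made up 8.68% to 9.31% of the reads with NC siRNA and 9.23% to 9.71% with BNC2 siRNA, and their part in the metallothionein values was not tested.

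The summed metallothionein level overlapped between the groups, whereas the share of MT1X in it did not. Summed over the 15 metallothionein genes and pseudogenes of the table, the level was 610, 743 and 825 CPM with NC siRNA and 797, 594 and 630 CPM with BNC2 siRNA. The groups overlapped, with means of 726 ± 109 and 674 ± 108 CPM (SD, n = 3). MT2A supplied 95.3% to 95.8% of these counts with NC siRNA and 94.2% to 94.99% with BNC2 siRNA. The share of MT1X, which needs no scaling between libraries, was 4.24%, 3.70% and 4.02% with NC siRNA and 4.61%, 5.26% and 5.26% with BNC2 siRNA. Each BNC2 siRNA library was above each control, with a difference of 1.05 percentage points (means 3.99% ± 0.271 and 5.04% ± 0.374, SD, n = 3). The exact two-sided permutation test gave p = 0.1, the smallest value that 3 libraries against 3 allow. This share was examined after the gene values had been seen.

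**Figure D4:**
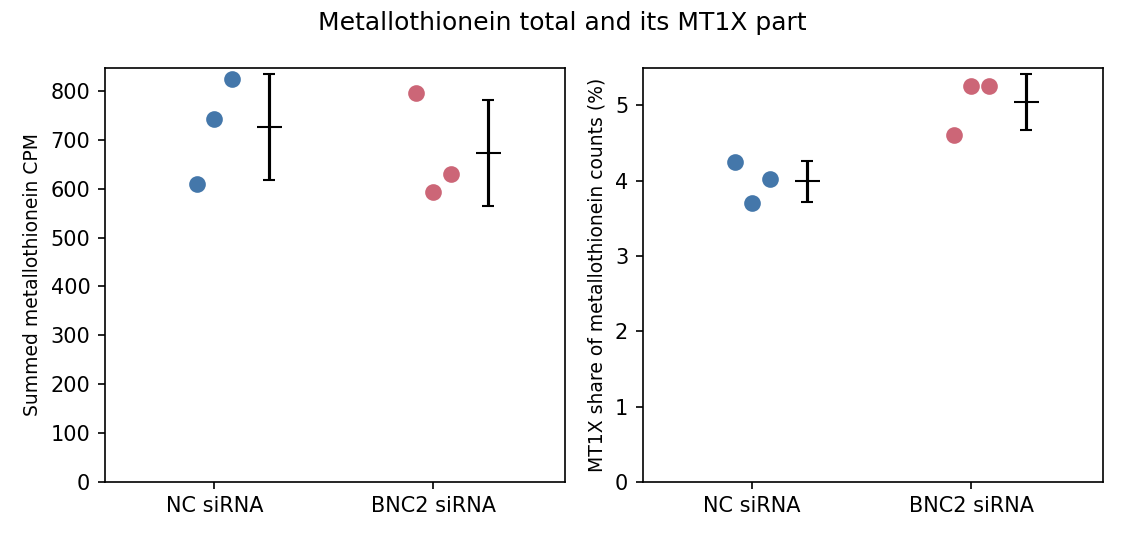
Summed metallothionein level in TMM-normalised CPM (left) and the percentage of metallothionein counts from MT1X (right), with 1 point per library and the mean with SD beside the points. The sums overlap around means of 726 and 674 CPM, whereas the MT1X shares of 3.70% to 4.24% and 4.61% to 5.26% do not.

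Most of the other SLC30 proteins move zinc from the cytosol out of the cell or into organelles. Among 9 listed genes 6 passed the filter: 3 rose, 1 fell and 2 were not called (median log2 change 0.13), beside 36.6% of all genes tested that rose and 36.2% that fell. SLC30A6, a zinc transporter of the Golgi, increased from 27.1 ± 3.00 to 53.2 ± 2.59 CPM (SD, n = 3; log2 change 0.97 ± 0.08 (SE), adjusted p = 2.2e-08). SLC30A9, which serves mitochondrial zinc export, rose from 49.0 ± 5.44 to 92.9 ± 4.03 CPM (log2 change 0.92 ± 0.08 (SE), adjusted p = 1.3e-08). SLC30A7, also of the Golgi, rose by 0.29 on the log2 scale (adjusted p = 0.0013). SLC30A3, known for loading zinc into synaptic vesicles, was low at 3.44 ± 0.583 CPM and fell to 1.80 ± 0.408 CPM (log2 change -0.92 ± 0.22 (SE), adjusted p = 0.0015). SLC30A1 had the highest log2 fold change of the SLC30 genes tested, and its difference from SLC30A6 and SLC30A9 was not tested.

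SLC39 transporters bring zinc into the cytosol, from outside or from organelles. Among 14 SLC39 genes 11 passed the filter: 7 rose, 1 fell and 3 (SLC39A1, SLC39A3 and SLC39A6) were not called (median log2 change 0.32), beside 36.6% of all genes tested that rose and 36.2% that fell. The difference of these shares was not tested. SLC39A7, which releases zinc from the endoplasmic reticulum, had 141, 142 and 140 CPM with NC siRNA and 294, 314 and 289 CPM with BNC2 siRNA. These groups lay far apart, with a log2 fold change of 1.09 (SE 0.06, adjusted p = 3.6e-11). SLC39A9 and SLC39A11 rose by log2 fold changes of 0.74 (adjusted p = 2.5e-08) and 0.48 (adjusted p = 0.0031). SLC39A13, whose loss causes a connective tissue disorder, fell from 45.6 ± 2.98 to 31.7 ± 2.78 CPM (log2 change -0.53 ± 0.08 (SE), adjusted p = 2.2e-05).

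Copper is also bound by metallothioneins, and all 12 genes listed for copper handling were tested. Here 4 rose, 2 fell and 6 were not called (median log2 change 0.20), so that fewer were called than the 72.9% of all genes tested, a difference that was not tested. ATOX1, the chaperone that hands copper to the exporters ATP7A and ATP7B, had 58.2, 68.7 and 78.4 CPM with NC siRNA and 15.7, 11.4 and 10.1 CPM with BNC2 siRNA. The fall of ATOX1 exceeded in size the rise of SLC30A1, with a log2 fold change of -2.46 (SE 0.13, adjusted p = 6.6e-11). COMMD1, a regulator of copper export, fell by 0.99 on the log2 scale (adjusted p = 2.3e-06). ATP7B rose from 6.21 ± 0.913 to 12.5 ± 1.33 CPM (log2 fold change 1.00, adjusted p = 5.0e-06), and CCS, the copper chaperone of SOD1, by 0.77 (adjusted p = 1.0e-05), whereas SOD1 itself had a log2 fold change of -0.07 (adjusted p = 0.470).

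**Figure D5:**
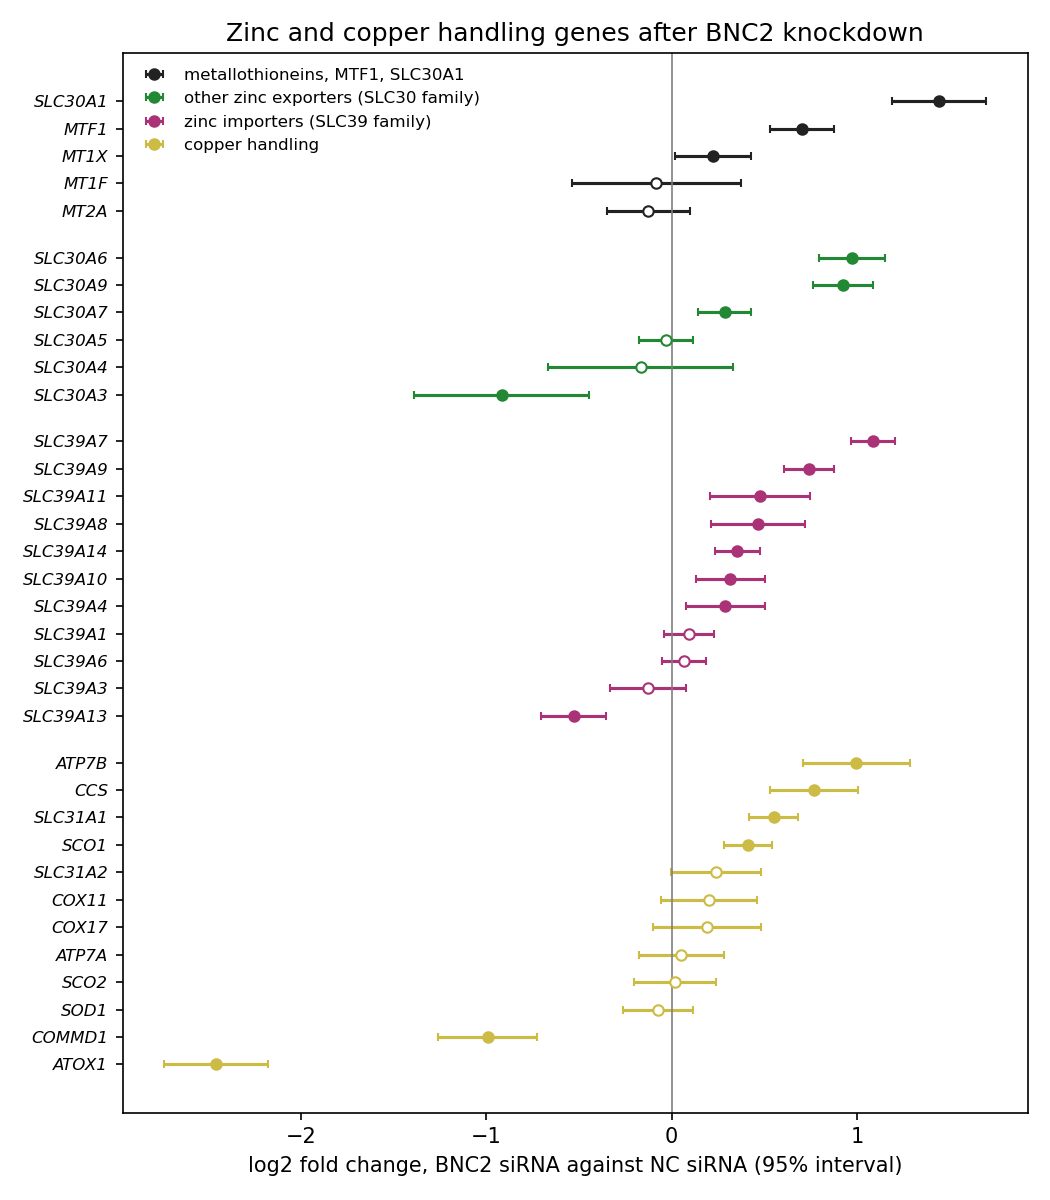
Log2 fold change of BNC2 siRNA against NC siRNA with its 95% interval for the 5 genes tested of the 10, 6 other SLC30 exporters, 11 SLC39 importers and 12 copper handling genes, filled where the adjusted p was at most 0.05. SLC30A1 at 1.44 lies farthest to the right and ATOX1 at -2.46 farthest to the left.

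Of 6 factors listed for metallothionein promoters, apart from MTF1, 5 were in the table and passed the filter, and 2 rose while 3 fell (median log2 change -0.18). With 72.9% of all genes tested called, nothing is read from this count. SP1, which binds GC-rich promoters, rose by 0.44 on the log2 scale (SE 0.06, adjusted p = 7.1e-06). USF1 and USF2, which bind E-boxes of the metallothionein promoters, had log2 fold changes of -0.45 (adjusted p = 1.1e-05) and -0.35 (adjusted p = 0.00012). NR3C1, the glucocorticoid receptor through which steroids raise MT2A, fell slightly, by 0.18 on the log2 scale (adjusted p = 0.019), and this call was lost without BNC2 siRNA replicate 1 (-0.13).

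As a description over the 6 libraries, the genes outside the 10 whose log2 CPM followed MT2A most closely were MRPS11 (Pearson r = 0.988), C17orf90 (0.979), LOC100272217 (0.972), RGS12 (0.972) and C9orf7 (0.966). None of the 5 was called as changed, with log2 fold changes between -0.20 and -0.07. For SLC30A1 the closest genes were PCDH19 (0.999), RBM43 (0.999), TMEM41B (0.997), ELP2 (0.997) and ZNF430 (0.997). These 5 rose by log2 fold changes of 0.57 to 1.23. The groups overlapped in each of the 5 genes like MT2A and were apart in each of the 5 like SLC30A1. The genes were picked by correlation over libraries of both groups, so this overlap or separation largely follows from the choice. Across all genes tested, the groups did not overlap in 74.9%. The 6 points of every correlation come from the same libraries and share their depth and scaling.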

How the data were processed

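Poly(A) RNA of BT549 cells was sequenced as 75-base single-end reads, 3 libraries with NC siRNA and 3 with BNC2 siRNA, grouped by the sample titles. The authors aligned reads to hg19 with STAR 2.6.1d (processing notes) and the iGenomes UCSC annotation, and deposited raw counts per gene of uniquely mapped reads on the reverse strand, without normalisation. Reads assigned to no gene (37.7% to 41.1% of a library) were left out. The libraries had 16093978 to 18246254 counts, so 3 counts, the upper limit that a count of 0 allows, are 0.164 to 0.186 CPM. Such limits cover counting error only.

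The 12186 genes above 1 CPM in 3 or more libraries were tested with edgeR 4.0.16 in R 4.3.3, using TMM scaling (factors 0.972 to 1.04) and the quasi-likelihood test. The p-values were adjusted by Benjamini-Hochberg across these genes and called at 0.05. The methods of the study use edgeR's likelihood ratio test, which was run as an alternative. The standard error is the log2 fold change divided by the square root of F, and intervals are at 95%. CPM use the full library size times the TMM factor. A 3 against 3 permutation test cannot give p below 0.1. On simulated counts of this comparison, with 12065 genes tested, 197 of 198 genes changed 2-fold were recovered (99.5%) with 11 false calls. A far smaller part of the genes changed in the simulation than the 72.9% called in these data. It therefore does not show how the test performs with so many changes or with changes smaller than 2-fold.

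Alternatives were the likelihood ratio test, DESeq2 1.42.0, DESeq2's size factors, total counts only, no low-count filter, filterByExpr, a replicate block, both strands and leaving out each library. The genes described, the lists and the tests were chosen with earlier results of these data known. All 10 genes, every metallothionein in the table, BNC2, the up to 4 largest called changes of each list and the 5 genes most like MT2A and like SLC30A1 were named. Further genes were named after their values were seen. Positions and lengths are from GENCODE 44 on GRCh37, the assembly of hg19. Windows of 75 bases were compared with GRCh37 and GENCODE transcripts by BLAST+ 2.17.0. Promoters are from RefSeq (GRCh38.p14). Python 3.11.15 was used. MT1A, MT1E, MT1F, MT1G and MT1M were not matched to a promoter. Some listed genes are not reported here.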

Additional observations from a re-analysis of the deposited data

How the results depend on the processing

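SLC30A1 and MTF1 kept their direction and their call under all 14 alternatives, with log2 fold changes from 1.34 to 1.57 and from 0.63 to 0.76. MT1X was called under 6 of the 14 and lost its call with DESeq2 (0.22), DESeq2's size factors (0.22), total counts only (0.15) and the replicate block (0.23), and ranged from 0.13 to 0.32 with 1 library left out. MT2A ranged from -0.26 to -0.034 with 1 library left out and was then called without BNC2 siRNA replicate 1 or NC siRNA replicate 1. MT1F ranged from -0.20 to 0.10, with the sign turned without NC siRNA replicate 2 (0.10). Causes were not tested. Among the lists, the promoter factors called upwards were 1 in place of 2 with total counts only and with the replicate block, and 1 to 2 with 1 library left out. The heat shock genes called downwards were 4 in place of 2 with total counts only. With 1 library left out, the SLC39 genes called downwards were 1 to 2 and the flanking genes called upwards 1 to 2. BBS2 was not called without BNC2 siRNA replicate 3 (0.33), nor NR3C1 with the replicate block (-0.17) or without BNC2 siRNA replicate 1 (-0.13).

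The number of genes called was 8879, and 8084 to 9662 under the alternatives. Scaling by total counts moved the median log2 fold change of all genes to -0.07. Same-numbered libraries did not deviate together (correlations of -0.21, -0.08 and -0.13), so no shared deviation by number was seen. With 3 libraries per group this check cannot show whether the samples were paired in the experiment. With the replicate block 8400 genes were called, and of the 10 genes only MT1X lost its call. The summed metallothionein level with BNC2 siRNA was 0.928 times that with NC siRNA, and 0.843 to 0.996 times under the alternatives, of which leaving out a library was added after seeing the data. The MT1X share differed by 0.91 to 1.27 points under alternatives added in the same way. Depth limits MT1E, MT1F and the genes with 0 to 3 counts.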

Other observations

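Genes of heat shock and of glucocorticoid response, both of which can accompany metallothionein induction, were called in both directions, beside all genes tested, of which 72.9% were called (36.6% upwards and 36.2% downwards). Among 12 heat shock genes 11 passed the filter: 5 rose, 2 fell and 4 were not called (median log2 change 0.04). HSPD1, the mitochondrial chaperone, rose from 373 ± 6.58 to 710 ± 25.3 CPM (SD, n = 3; log2 fold change 0.93, adjusted p = 1.5e-10), and HSPA1A, the inducible HSP70, rose by 0.71 (adjusted p = 9.8e-09), a value that is uncertain because HSPA1B is a near-identical copy. BAG3, the HSP70 co-chaperone, fell from 143 ± 3.17 to 75.3 ± 5.20 CPM (log2 fold change -0.93, adjusted p = 1.1e-09), and HSPB1, a small heat shock protein, fell by 0.53 on the log2 scale (adjusted p = 0.00015). Among 8 glucocorticoid-induced genes 6 passed the filter: 2 rose, 3 fell and 1 was not called (median log2 change -0.39). TSC22D3 (log2 fold change 1.39, adjusted p = 2.0e-07) and SGK1 (0.72, adjusted p = 3.4e-08) rose, whereas DUSP1 (-1.07, adjusted p = 3.0e-07) and KLF9 (-0.96, adjusted p = 2.1e-06) fell. FKBP5, a sensitive glucocorticoid target, had 4 counts in BNC2 siRNA replicate 1, 1 in NC siRNA replicate 1 and 0 in the others.

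Among genes that flank the metallothionein cluster on chromosome 16, NUDT21 and BBS2 rose, HERPUD1 fell, and OGFOD1 and NUP93 were not called. NUDT21 had a log2 fold change of 0.50 (adjusted p = 1.7e-06), BBS2 of 0.50 (adjusted p = 0.0081) and HERPUD1 of -0.27 (adjusted p = 0.0020).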
